A study of Homo sapiens with 4 samples.

Results

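The imprinted growth genes are 10 genes of which, as a rule, 1 parental copy is silenced and which act on fetal growth: H19, IGF2, CDKN1C and PHLDA2 at 11p15.5, DLK1 and MEG3 at 14q32, PEG10 and MEST on chromosome 7, PLAGL1 on chromosome 6 and PEG3 on chromosome 19. They were taken by name, as the rows of the gene expression table that carry these symbols, 10 of 23615 symbols in all. Day 14 cardiomyocytes from 2 differentiation routes were compared by RNA-seq of poly-A RNA, with 2 biological replicates in each group and 4 libraries in all. All cells came from RUES2, a human embryonic stem cell line, and were sequenced unsorted. Both routes began with 100 ng/ml activin A on day 0, then 5 ng/ml BMP4 with 1 µM CHIR-99021, an activator of Wnt signaling, on day 1 (A100/B5). For the cells named ECsXAV, the culture passed through hemogenic endothelial cells (ECs) made with 200 ng/ml VEGF, 5 ng/ml bFGF and 10 ng/ml BMP4 from day 2, and 2 µM XAV-939, which blocks Wnt/β-catenin signaling, was added from day 5. For the cells named CPC, the culture passed through cardiac progenitor cells, and the study's methods give 1 µM XAV-939 on day 3 for a subset of such experiments, without saying whether these libraries were among them. The sample names of the groups begin differently and the labels do not say what this part of the name stands for.

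Genomic imprinting marks a gene by DNA methylation set in the germ line, so that only the copy from the mother or only the copy from the father is transcribed. Paternally expressed genes such as IGF2, DLK1, PEG3, PEG10, MEST and PLAGL1 mostly favor growth of the fetus or placenta, and maternally expressed genes such as H19, CDKN1C and PHLDA2 mostly restrain it. Many of them lie in clusters under a shared control region and are high in fetal tissues, the fetal heart included, and lower after birth. The values used here sum both copies of each gene, so they do not show which parental copy was transcribed.

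The values are FPKM, the sequenced fragments of a gene scaled to its length in kilobases and to the mapped fragments of the library. Between 12070 and 12240 genes reached 1 FPKM in a library, and the estimated depth was about 11000000 fragments in ECsXAV replicate 2 and 17600000 to 22000000 in the other 3 libraries. Fold changes are CPC minus ECsXAV on log2(FPKM + 1). Positive values are thus higher in CPC, and the added 1 shrinks the fold change of a weakly expressed gene. Genes with a mean of at least 1 FPKM, 12398 in all, were tested with limma, and the criterion was an adjusted p under 0.05 with a fold change over 2. All 10 cardiomyocyte markers were expressed in every library, with summed levels of 13992 to 14342 FPKM in ECsXAV and 12556 to 13220 FPKM in CPC. Of these 10, MYH6, the atrial myosin heavy chain, was 2.32-fold higher in CPC, and MYH7, the ventricular one, and NPPA, the atrial natriuretic peptide, were 5.70-fold and 10.2-fold higher in ECsXAV, all 3 past the criterion given above. The 10 endothelial markers summed to 12.9 to 13.7 FPKM in ECsXAV and 11.6 to 15.0 FPKM in CPC, mostly from KDR, and 7 of them had a mean under 1 FPKM. CDH5, TEK, ESAM and VWF were lower in CPC and EMCN higher, without overlap of the groups, as for 49.8% of all genes tested. None of the 3 endothelial markers tested passed the criterion.

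The microRNAs of H19 and MEST are shown because their hosts were measured in every library while the microRNAs themselves were barely seen. The first exon of H19 holds miR-675, and an intron of MEST holds miR-335. The mature forms, from RefSeq on GRCh38.p14, are written with the seed (bases 2 to 8, which pair with target RNAs) in capitals. The miR-675 arms lie at chr11:1996800-1996822 and chr11:1996768-1996787 on the minus strand, and the miR-335 arms at chr7:130496126-130496148 and chr7:130496162-130496183 on the plus strand.
hsa-miR-675-5p: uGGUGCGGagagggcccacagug
hsa-miR-675-3p: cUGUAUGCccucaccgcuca
hsa-miR-335-5p: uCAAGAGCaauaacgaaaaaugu
hsa-miR-335-3p: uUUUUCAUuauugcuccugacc
The 4 arms have 4 different seeds. Among the mature microRNAs of that RefSeq table, the seed of miR-675-5p is held by 2 entries and each of the other 3 by 1. In these poly-A libraries the hairpin of miR-675 was at 5.13e-06 FPKM or less and that of miR-335 was listed at 0, and libraries of this kind do not measure the mature microRNAs.

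The promoters of H19 and MEG3, both maternally expressed long noncoding RNAs, are set side by side because the first was measured in every library and the second was listed at 0 in every library. Each runs from 250 bases before to 50 bases after the RefSeq start (GRCh38.p14), with every CpG, the dinucleotide that imprinting methylates, in capitals. The H19 entry lies at chr11:2001217-2001516 on the minus strand, and the first of 3 overlapping MEG3 entries at chr14:100825858-100826157 on the plus strand. The H19 entry lies far upstream of the miR-675 arms given above, which are in the first exon. It may thus belong to another start than that of NR_002196, the H19 transcript measured.
H19: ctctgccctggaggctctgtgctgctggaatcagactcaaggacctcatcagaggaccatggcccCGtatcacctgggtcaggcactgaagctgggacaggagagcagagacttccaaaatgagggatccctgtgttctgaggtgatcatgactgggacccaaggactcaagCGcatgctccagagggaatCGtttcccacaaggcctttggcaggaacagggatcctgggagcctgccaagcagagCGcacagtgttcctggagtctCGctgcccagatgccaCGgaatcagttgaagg
MEG3: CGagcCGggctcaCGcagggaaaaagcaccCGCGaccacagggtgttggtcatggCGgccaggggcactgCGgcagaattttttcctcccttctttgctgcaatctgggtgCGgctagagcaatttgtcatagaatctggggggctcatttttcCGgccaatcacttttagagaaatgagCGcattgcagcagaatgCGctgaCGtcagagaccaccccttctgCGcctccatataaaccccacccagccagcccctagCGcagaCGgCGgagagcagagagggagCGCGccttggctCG
The H19 entry holds 6 CpG and the MEG3 entry 19, beside a median of 14 over the 35116 promoter entries of this length. Fewer CpG were held by 33.7% of all entries for H19 and by 57.1% for MEG3. DNA methylation was not measured in the data used here.

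Of the 10 genes, 7 reached a mean of 1 FPKM and were tested, PHLDA2 was above 0 in every library but under that mean, and MEG3 and PEG3 were listed at 0 in all 4 libraries. The 10 genes were chosen with earlier results of these data known, so their shares beside those of all genes do not measure an enrichment. The criterion was passed by 2 of the 7, PEG10 higher in CPC and DLK1 lower in CPC, beside 2.15% of all genes tested. An adjusted p under 0.05 without the fold criterion was reached by 3 of the 7, H19 being the third, beside 2.89% of all genes, and an unadjusted p under 0.05 by 5 of the 7, beside 18.2% of all genes. The libraries of the groups did not overlap for 6 of the 7, the exception being IGF2, beside 49.8% of all genes. The median log2 fold change of the 7 was -0.65 and that of all genes tested -0.0045, with 4 of the 7 lower in CPC and 3 higher. The exact permutation p of a gene could not go below 0.333 in this design of 2 against 2 (two-sided), and each adjusted p leans on the spread that limma pools over all genes.

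**Figure D1:**
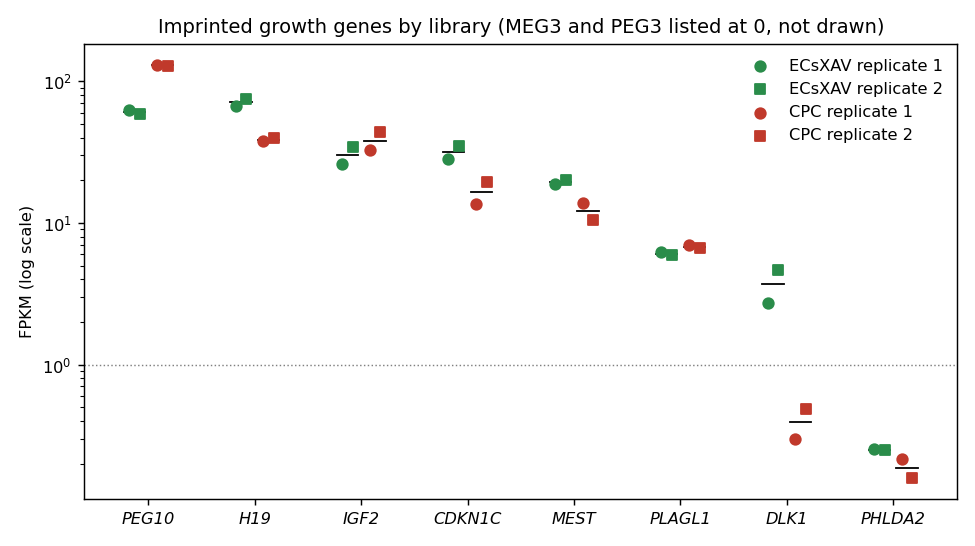
FPKM of the 8 imprinted growth genes above 0 (y axis, log scale) by gene (x axis), with a point for each library of ECsXAV (green) and CPC (red), circles for replicate 1 and squares for replicate 2, a black bar at each group mean and a dotted line at 1 FPKM. PEG10 sits at 127 and 131 FPKM in CPC above 58.8 and 62.5 FPKM in ECsXAV, and DLK1 lies under 1 FPKM in both CPC libraries and above it in both ECsXAV libraries.

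Levels of the genes may be ordered, since FPKM are per length. In ECsXAV, mean FPKM ran from 70.9 for H19 and 60.6 for PEG10 to 31.7 for CDKN1C, 30.2 for IGF2, 19.4 for MEST, 6.05 for PLAGL1, 3.70 for DLK1 and 0.251 for PHLDA2. The libraries of CDKN1C and IGF2 overlapped, so their order is not set by these values. In CPC, PEG10 led with 129 FPKM, followed by H19 at 38.8, IGF2 at 38.1, CDKN1C at 16.5, MEST at 12.1, PLAGL1 at 6.79, DLK1 at 0.395 and PHLDA2 at 0.187. There the H19 libraries lay within the range of the IGF2 libraries, and those of CDKN1C and MEST overlapped. H19 and PEG10 were above 92.6% and 96.3% of the tested genes by mean FPKM over all libraries, and DLK1 above 11.9%.

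PEG10, derived from a retrotransposon and required for the placenta, rose in CPC relative to ECsXAV. It lies at chr7:94285637-94299007 on the plus strand (GRCh37, the build of hg19, as for all gene positions that follow). Its level was 62.5 and 58.8 FPKM in ECsXAV and 131 and 127 FPKM in CPC. The lower CPC library was above the higher ECsXAV library, and the means differed 2.13-fold. The log2 fold change was 1.08 (SE 0.11, 95% interval 0.80 to 1.36, limma adjusted p = 0.0226). With ECsXAV replicate 1 left out, the adjusted p was 0.118, and it was 0.169 without ECsXAV replicate 2, 0.0875 without CPC replicate 1 and 0.0806 without CPC replicate 2, with log2 fold changes of 1.035 to 1.122 in those 4 fits.

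SGCE, a sarcoglycan of muscle and brain whose start lies 0.247 kb from that of PEG10 on the other strand, is also expressed from the paternal copy. Its level was 9.74 and 9.44 FPKM in ECsXAV and 15.5 and 16.4 FPKM in CPC. The groups did not overlap, and the log2 fold change was 0.68 (SE 0.11, limma adjusted p = 0.05002, just above the threshold). The first 0.247 kb of both genes overlap, and the sources do not state whether the FPKM used strand, so reads there cannot be told apart. CASD1, a sialic acid O-acetyltransferase gene 147 kb upstream of PEG10, was at 11.2 and 10.6 FPKM in ECsXAV and at 21.3 and 12.8 FPKM in CPC, with a log2 fold change of 0.56 (limma adjusted p = 0.316).

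DLK1, a transmembrane protein of the Delta family that keeps progenitors from differentiating and is known to modulate Notch, fell in CPC relative to ECsXAV. It lies at chr14:101192042-101204561 on the plus strand. The ECsXAV replicates were at 2.73 and 4.67 FPKM, and the CPC replicates at 0.300 and 0.489 FPKM. The ECsXAV mean was 9.39-fold the CPC mean, and the log2 fold change of FPKM + 1 was -1.73 (SE 0.25, 95% interval -2.36 to -1.09, limma adjusted p = 0.0439). The read counts behind these values are not known. The smallest whole numbers of reads that give them are 21 and 18 in ECsXAV and 2 and 3 in CPC, but whole multiples of these fit as well. From the smallest numbers and the relative depths, the ratio of ECsXAV to CPC was 8.66. Its exact 95% interval was 3.41 to 28.1 for counting error only, and larger counts would narrow it. Without ECsXAV replicate 1 the adjusted p was 0.0144, without ECsXAV replicate 2 it was 0.0709, without CPC replicate 1 0.152 and without CPC replicate 2 0.143. With no filter on low values it was 0.0929.

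MEG3, the maternally expressed noncoding RNA of the same cluster at chr14:101245747-101327368, was listed at 0 in all 4 libraries, for the gene and for each of its 15 transcripts. An exact 0 in such a table can be a failed estimate, so it does not show that the RNA was absent. Most genes of the cluster are short RNA genes. Of the 60 genes that start within 250 kb of MEG3, 56 are short RNA genes and 57 were listed at 0 in every library. Poly-A libraries are not made to measure short RNAs, so these values of 0 do not show that the cluster was silent. BEGAIN and RTL1 were under 0.1 FPKM in every library, and MIR432 was at 36.5 FPKM in ECsXAV replicate 2 and at 0 in the other 3 libraries. MIR432 lies at chr14:101350820-101350913, and for so short a gene few reads can give a high FPKM.

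H19, a noncoding RNA of fetal mesoderm and endoderm, was lower in CPC, but by less than 2-fold. It lies at chr11:2016396-2025782 on the minus strand. Its level was 66.7 and 75.03 FPKM in ECsXAV and 37.5 and 40.0 FPKM in CPC. Both CPC libraries lay below both ECsXAV libraries, with an ECsXAV mean 1.83-fold the CPC mean. The log2 fold change was -0.85 (SE 0.12, 95% interval -1.16 to -0.55, limma adjusted p = 0.0413), past the p threshold and not past the fold criterion. With any 1 of the 4 libraries left out, the limma adjusted p of H19 was above the threshold, at 0.116 to 0.269.

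IGF2, the fetal growth factor that shares its enhancers with H19, was not lower in CPC. It lies at chr11:2150342-2179621 on the minus strand. The ECsXAV replicates were at 25.9 and 34.6 FPKM and the CPC replicates at 32.5 and 43.6 FPKM. The lower CPC library lay between the ECsXAV libraries, and the log2 fold change was 0.32 (SE 0.21, 95% interval -0.22 to 0.86, limma adjusted p = 0.490). H19 was 2.57-fold and 2.17-fold the IGF2 level in the ECsXAV replicates, and 1.15-fold and 0.917-fold in the CPC replicates. On the log2 scale the ratio of H19 to IGF2 was 1.24 ± 0.17 in ECsXAV and 0.04 ± 0.24 in CPC (SD, n = 2 each), a difference of -1.20 with an exact two-sided permutation p of 0.333, the smallest that this design allows. The antisense gene IGF2-AS lies within IGF2 and was at 0.538 to 0.843 FPKM.

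CDKN1C encodes p57, an inhibitor of cyclin-dependent kinases that holds cells out of the cycle, and lies at chr11:2904443-2907005 on the minus strand, under another control region of 11p15.5 than H19 and IGF2. Its level was 28.3 and 35.1 FPKM in ECsXAV and 13.6 and 19.4 FPKM in CPC. The groups did not overlap, and the ECsXAV mean was 1.92-fold the CPC mean. The log2 fold change was -0.92 (SE 0.21, 95% interval -1.46 to -0.38) and missed the threshold with a limma adjusted p of 0.108, although its size was larger than that of H19. PHLDA2, a pleckstrin homology protein that limits growth of the placenta, lies at chr11:2949503-2950650 in the same domain. It was at 0.251 and 0.251 FPKM in ECsXAV and at 0.217 and 0.158 FPKM in CPC, values that take 2 to 4 reads per library at the least. The ratio of ECsXAV to CPC from these reads was 1.33 with an exact 95% interval of 0.339 to 5.52, so a difference was not detectable at this depth. SLC22A18, a transporter gene between CDKN1C and PHLDA2, had a log2 fold change of -0.39 (limma adjusted p = 0.399).

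MEST, a hydrolase-like protein of mesoderm, was at 18.7 and 20.1 FPKM in ECsXAV and at 13.7 and 10.4 FPKM in CPC. It lies at chr7:130126012-130146306 on the plus strand. Both CPC libraries were below both ECsXAV libraries, and the log2 fold change of -0.65 (SE 0.16, 95% interval -1.06 to -0.25) missed the threshold with a limma adjusted p of 0.122. The antisense gene MESTIT1 overlaps its start and was at 0.0513 to 0.119 FPKM. COPG2, which overlaps its end on the other strand, had a log2 fold change of -0.01 (limma adjusted p = 0.960).

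PLAGL1, a zinc finger transcription factor that acts on other imprinted genes, lies at chr6:144261437-144385736 on the minus strand and had the smallest log2 fold change of the 7 tested genes. It was at 6.20 and 5.91 FPKM in ECsXAV and at 6.93 and 6.65 FPKM in CPC. The libraries did not overlap, yet the log2 fold change was 0.14 (SE 0.11, 95% interval -0.14 to 0.43, limma adjusted p = 0.556). PEG3, a zinc finger gene of the placenta, brain and muscle at chr19:57321445-57352096, was listed at 0 in all libraries, for the gene and its 5 transcripts. So were ZIM2, which starts 0.003 kb from PEG3 on the same strand, and USP29, another imprinted gene. As for MEG3, an exact 0 can be a failed estimate and does not show that the RNA was absent.

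**Figure D2:**
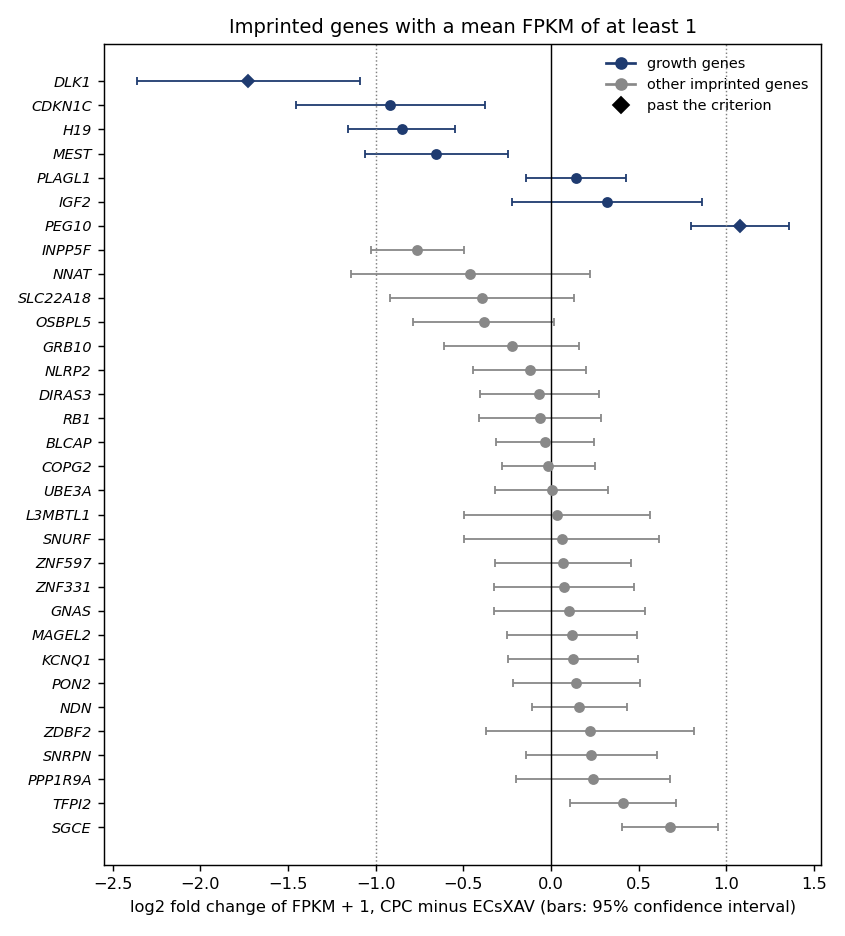
Log2 fold change of FPKM + 1 (x axis, CPC minus ECsXAV) for the imprinted genes tested (y axis), the 7 growth genes in blue and the 25 other imprinted genes in gray, with bars for the 95% interval of limma, diamonds for genes past the criterion and dotted lines at a change of 2-fold. DLK1 at -1.73 and PEG10 at 1.08 are the genes past the criterion, and no gray point reaches a dotted line.

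Other imprinted genes were examined as a list of 41, of which 25 were tested. Of these, 0 passed the limma criterion, beside the 2.15% of all genes tested given above, and 3 had an unadjusted p under 0.05, beside 18.2% of all genes. Their median log2 fold change was 0.06, with 15 higher in CPC and 10 lower, and a further 4 were listed at 0 everywhere (INS, ZIM2, USP29 and MEG8). An adjusted p under 0.05 was reached by INPP5F, a phosphoinositide phosphatase, at 16.3 and 16.6 FPKM in ECsXAV and 9.15 and 9.40 FPKM in CPC (log2 fold change -0.76, SE 0.10, limma adjusted p = 0.0401), and with any 1 of the 4 libraries left out it was 0.104 to 0.277. It was also above the threshold with no filter, at 0.0735, and in the fit with a replicate block, at 0.0545, both from limma. After INPP5F and SGCE, the next 3 by size were NNAT, a small membrane protein of neurons (-0.46, limma adjusted p = 0.448), TFPI2, a protease inhibitor of the PEG10 region (0.41, 0.162), and SLC22A18. FAM50B was under the filter, at 0.925 and 1.08 FPKM in ECsXAV and 0.294 and 0.200 FPKM in CPC. Without the filter its limma adjusted p was 0.0769.

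**Figure D3:**
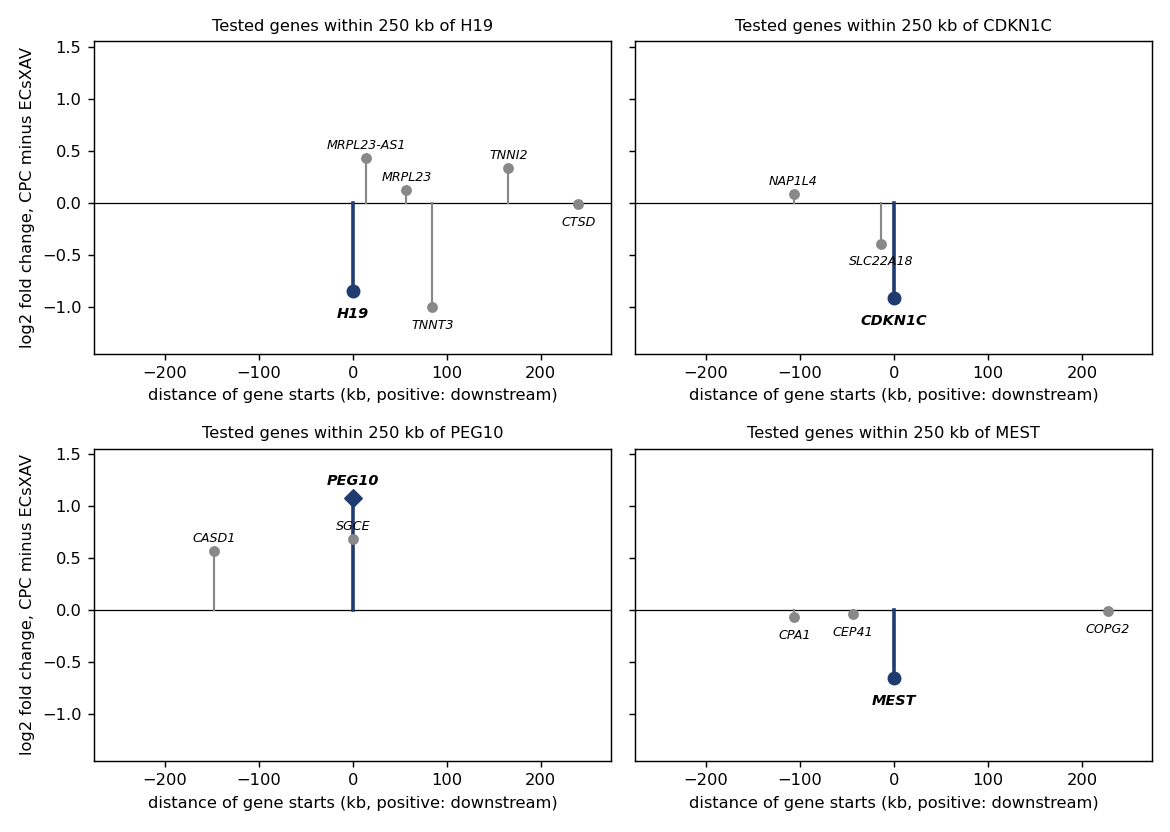
Log2 fold change of FPKM + 1 (y axis, CPC minus ECsXAV) of the tested genes that start within 250 kb of H19, CDKN1C, PEG10 and MEST, against the distance between gene starts (x axis, kb, positive downstream of the named gene), with the imprinted growth gene in blue, a diamond where it passed the criterion and its neighbors in gray. SGCE (0.68) and CASD1 (0.56) lie above 0 beside PEG10, while beside H19 the points lie on both sides of 0, from TNNT3 (-1.002) to MRPL23-AS1 (0.42).

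Around the 10 genes, 108 other genes start within 250 kb, of which 47 are not short RNA genes. Of the 108, 22 were tested, among them the short RNA gene MIR432, which was above 0 only in ECsXAV replicate 2. Of these 22, 0 passed the limma criterion (2.15% of all genes did) and 3 had an unadjusted p under 0.05 (18.2% of all genes did). Their median log2 fold change was -0.03, with 14 lower in CPC and 8 higher. TNNT3, the fast skeletal troponin T 84.8 kb downstream of the H19 start, was at 3.76 and 3.89 FPKM in ECsXAV and at 0.988 and 1.92 FPKM in CPC (log2 fold change -1.002, SE 0.22, limma adjusted p = 0.0989). TNNI2, the fast skeletal troponin I 166 kb downstream, was at 0.958 and 0.904 FPKM in ECsXAV and at 0.971 and 2.01 FPKM in CPC. The 12 skeletal muscle markers, TNNT3 and TNNI2 among them, summed to 417 to 502 FPKM in ECsXAV and 441 to 539 FPKM in CPC, mostly from CKM and ACTN3. Of the 4 tested, ACTN3 passed the criterion, at 37.2 and 55.9 FPKM in ECsXAV and 130 and 129 FPKM in CPC, while MYF5, MYF6 and PAX7 were listed at 0 in every library. CPA4, a carboxypeptidase gene upstream of MEST, was under the filter, at 0.760 and 1.25 FPKM in ECsXAV and 0.0413 and 0.0225 FPKM in CPC, with a limma adjusted p of 0.0926 without the filter. TNNT3, TNNI2 and CPA4 were picked out after their values were seen.

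The genes that act with IGF2 were examined as a list of 19, its receptors, signal adaptors, binding proteins and RNA-binding partners. Of the 14 tested, 0 passed the limma criterion, 4 had an unadjusted p under 0.05 (18.2% of all genes did), the median log2 fold change was -0.0023, and 7 were higher in CPC and 7 lower. The 3 largest differences were in secreted binding proteins, but not all of these proteins differed. IGFBP4 had a log2 fold change of 0.07 (limma adjusted p = 0.886) and IGFBP5 0.02 (0.949). IGFBP7 was at 32.8 and 43.8 FPKM in ECsXAV and 14.0 and 17.7 FPKM in CPC (log2 fold change -1.22, SE 0.19, limma adjusted p = 0.0531). IGFBP2 was at 63.1 and 78.9 FPKM in ECsXAV and 29.9 and 43.9 FPKM in CPC (-0.94, SE 0.22, limma adjusted p = 0.118). IGFBP3 was at 11.8 and 13.6 FPKM in ECsXAV and 6.86 and 7.16 FPKM in CPC (-0.77, SE 0.12, limma adjusted p = 0.0529). For IGFBP7, IGFBP2 and IGFBP3 the groups did not overlap, as for 49.8% of all genes tested, and both CPC libraries were the lower. IGFBP6 had the opposite sign, with a log2 fold change of 0.41 (limma adjusted p = 0.159). IGF2R, the scavenging receptor of IGF2, had -0.23 (limma adjusted p = 0.330) and IGF1R, the signaling receptor, 0.02 (0.941). PAPPA, a protease that cleaves IGF binding proteins, was under the filter at 0.600 and 0.846 FPKM in ECsXAV and 0.0918 and 0.0421 FPKM in CPC, with a limma adjusted p of 0.0822 without the filter.

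Notch receptors, ligands and targets were examined as the list in which DLK1 is known to act. Of 14 genes, 9 were tested, 0 passed the limma criterion, 4 had an unadjusted p under 0.05 (18.2% of all genes did) and the median log2 fold change was -0.24. HEY2, a Notch target and ventricular transcription factor, was at 46.8 and 47.6 FPKM in ECsXAV and 17.6 and 26.2 FPKM in CPC (-1.10, SE 0.20, limma adjusted p = 0.0706). HEY1, its atrial counterpart, had -0.73 (0.176), the ligand JAG1 0.51 (0.149), the receptor NOTCH2 -0.44 (0.179) and the ligand DLL3 0.35 (0.344), each with its limma adjusted p in parentheses. These are the 5 largest of the 9 by size, and none passed the threshold.

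CDKN1C was set beside the 6 other inhibitors of cyclin-dependent kinases, of which 3 were tested. CDKN1A, which encodes p21, fell in CPC, from 135 and 174 FPKM in ECsXAV to 30.2 and 44.7 FPKM (log2 fold change -2.03, SE 0.23, limma adjusted p = 0.0297). The limma adjusted p of CDKN1A was 0.0999 without ECsXAV replicate 2, 0.102 without CPC replicate 1 and 0.0794 without CPC replicate 2. CDKN1B, which encodes p27, had a log2 fold change of 0.12 (limma adjusted p = 0.591) and CDKN2D -0.01 (0.980), the sign of the latter turning with quantile normalization and with ECsXAV replicate 1 or CPC replicate 1 left out. CDKN2B was under the filter at 1.26 and 1.68 FPKM in ECsXAV and 0.213 and 0.155 FPKM in CPC, with a limma adjusted p of 0.0735 without the filter.

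Markers of other cell types and of the cell cycle also differed between the groups, most lists summing to less in CPC, while the skeletal and endothelial sums given above overlapped between the groups. In bulk RNA from unsorted cells, fewer cells of a type and less RNA per cell cannot be told apart. Of all genes tested, 2.15% passed the limma criterion, 178 of them lower in CPC and 88 higher. Beside the lower DLK1, H19 and CDKN1A in CPC, the 10 proliferation markers summed to 86.5 to 104 FPKM in ECsXAV and 32.7 to 39.2 FPKM in CPC. By the limma criterion, 7 of these 10 fell. The 10 fibroblast and stroma markers summed to 192 to 228 FPKM in ECsXAV and 106 to 108 FPKM in CPC, and 3 of the 6 tested fell. The 12 liver and endoderm markers summed to 36.7 to 44.97 FPKM and 16.6 to 18.8 FPKM, and 3 of the 4 tested fell. FGA, FGB and HNF4A, each with a mean under 1 FPKM, were at 0 in both CPC libraries. APOA1, the other one tested, made up most of the CPC sum. It was at 20.6 and 17.9 FPKM in ECsXAV and 15.9 and 17.8 FPKM in CPC (limma adjusted p = 0.530). ALB overlapped between the groups, at 0.177 and 0.132 FPKM in ECsXAV and 0.0763 and 0.194 FPKM in CPC. AFP, a protein of fetal liver and yolk sac, was at 11.4 and 9.70 FPKM in ECsXAV and 0.199 and 0.124 FPKM in CPC. The 6 smooth muscle markers summed to 280 to 308 FPKM and 151 to 179 FPKM, with 1 of the 5 tested past the criterion. The 6 blood markers summed to 3.94 to 6.61 FPKM and 1.07 to 1.56 FPKM with PTPRC at 0 throughout, and the 6 pluripotency markers to 5.67 to 8.52 FPKM and 3.38 to 4.47 FPKM with NANOG at 0 throughout, and none of the 2 tested in either list passed. The part of these cells and of the cell cycle in the differences of the imprinted genes was not tested.

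**Figure D4:**
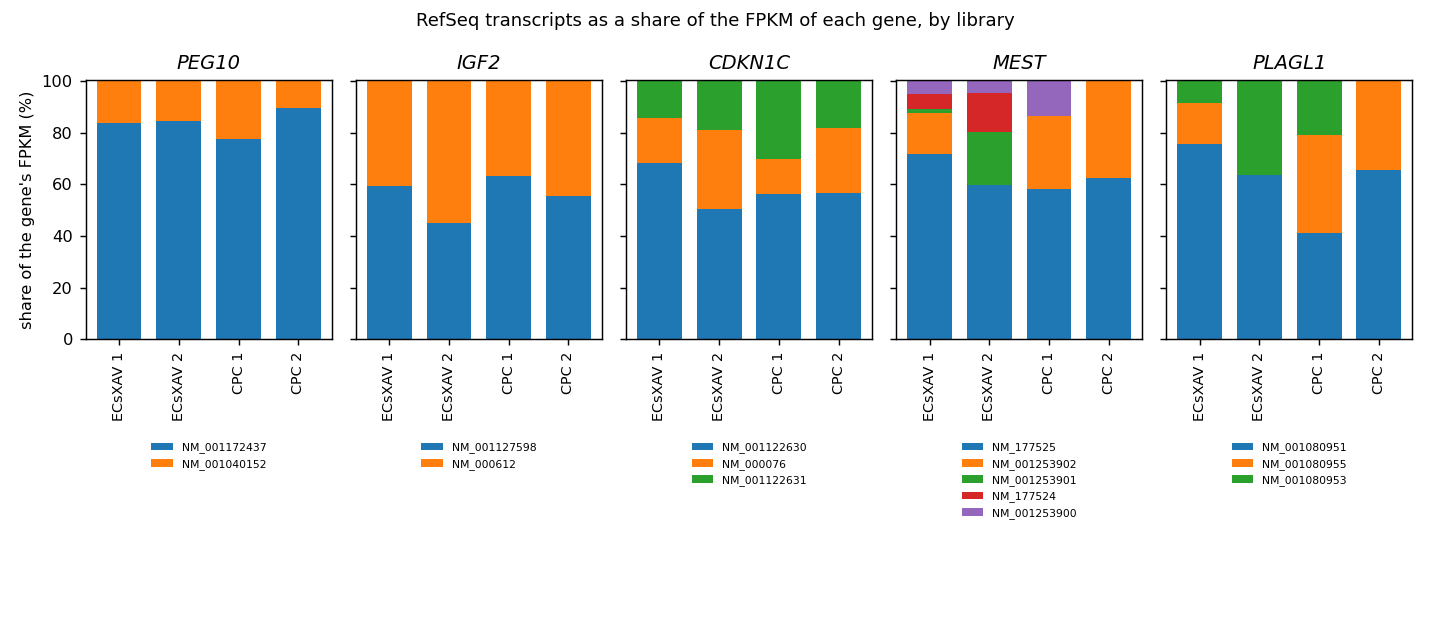
Share of the FPKM of PEG10, IGF2, CDKN1C, MEST and PLAGL1 (y axis, percent) that each RefSeq transcript took, in each of the 4 libraries (x axis), with transcripts that reached 1% in a library drawn as stacked colors. The leading PEG10 transcript took 77.6% to 89.5% in every library, while the smaller MEST and PLAGL1 transcripts changed places between replicates of a group.

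The 10 genes have 45 transcripts in the table, of which 16 reached a mean of 1 FPKM and were tested among 16504. None passed the limma criterion, beside 0.0727% of all transcripts, 8 had an unadjusted p under 0.05, beside 13.1% of all transcripts, and the lowest adjusted p was 0.119. That was NM_001172437, the leading transcript of PEG10, at 52.3 and 49.6 FPKM in ECsXAV and 102 and 114 FPKM in CPC (log2 fold change 1.06, SE 0.11). It took 83.8% and 84.4% of the PEG10 level in ECsXAV and 77.6% and 89.5% in CPC, the remainder being NM_001040152. DLK1 and H19 have 1 transcript each, with the values of the gene, and limma adjusted p over the transcripts of 0.206 and 0.155.

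IGF2 was split between NM_001127598, at 15.4 and 15.6 FPKM in ECsXAV and 20.6 and 24.1 FPKM in CPC (log2 fold change 0.50, limma adjusted p = 0.279), and NM_000612, at 10.5 and 18.998 FPKM and 11.95 and 19.5 FPKM (0.10, 0.937). Replicate 1 was below replicate 2 for NM_000612 in both groups, and the groups overlapped. For CDKN1C, NM_001122630 led with 50.6% to 68.4% of the level (-0.94, limma adjusted p = 0.235), ahead of NM_000076 (-1.02, 0.525) and NM_001122631 (-0.37, 0.638). All 3 had a negative log2 fold change, and none passed.

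MEST was led by NM_177525, at 13.4 and 12.02 FPKM in ECsXAV and 8.01 and 6.52 FPKM in CPC (log2 fold change -0.74, limma adjusted p = 0.229). The estimates of its smaller transcripts varied more between replicates. NM_177524 was at 1.14 and 3.10 FPKM in ECsXAV and 1.33e-12 and 6.42e-05 FPKM in CPC (-1.56, limma adjusted p = 0.320), NM_001253901 at 0.298 and 4.11 FPKM and 3.53e-13 and 0.000405 FPKM (-1.36, 0.562), and NM_001253902 at 2.96 and 0.00901 FPKM and 3.88 and 3.90 FPKM (1.29, 0.559). PLAGL1 was led by NM_001080951, with 75.5% and 63.5% of its level in ECsXAV and 41.2% and 65.4% in CPC (-0.19, limma adjusted p = 0.785). NM_001080955 took 16.1% and 0.0115% in ECsXAV and 37.8% and 34.6% in CPC (1.29, 0.371), and NM_001080953 took 8.45% and 36.5% and then 20.9% and 0.000983% (-0.49, 0.808). None of these smaller transcripts passed, and the split of reads among overlapping transcripts is an estimate by the authors' software.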

How the data were processed

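Poly-A RNA of unsorted day 14 cells was sequenced (Illumina TruSeq), with 2 biological replicates per group. The authors computed the deposited FPKM with Cufflinks 2.1.1 on UCSC gene annotations and hg19, and their processing notes also name TopHat 1.3.3. The handling of strand and of reads with several alignments is not given for the FPKM in the sources used here. The study's own test used counts and DESeq 1.12.1, and those counts were not used here.

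For symbols with several rows the row with the highest mean FPKM was kept, and each of the 10 members has 1. Values were tested as log2(FPKM + 1) with limma 3.58.1 in R 4.3.3, with a trend in the variance prior, a mean FPKM of at least 1 and Benjamini-Hochberg adjustment over all genes (or all transcripts) that passed it. The fit was tested on simulated data. p-values measure the spread between 2 cultures per group. Relative depth came from the whole-read steps of low FPKM, and absolute depth from 190 genes with a single transcript, 200 bases being taken off each length, so it is an estimate (quartiles of 18300000 and 22500000 for ECsXAV replicate 1). ECsXAV replicate 2 had 50.1% of the depth of that library, and the CPC replicates had 86.9% and 79.8%. Gene positions came from GENCODE release 44 lifted to GRCh37, and sequences from RefSeq tables on GRCh38.p14. Python 3.11.15 and SciPy 1.17.1 made the tables, ratios and exact tests.

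The members and lists were chosen with earlier results of these data known. Named genes are the 10 members, and of each list those past the criterion and the 5 largest fold changes, with all member transcripts tested. Other genes named under the filter, IGF1R, IGFBP4, IGFBP5, APOA1 and COPG2 were picked after their values were seen. Alternatives were another pseudocount (0.1), no filter, a stricter filter at 5 FPKM, quantile and median-of-ratios scaling, no trend, a robust prior, the replicate number as a block, no short RNA genes, no symbols with several loci, and each library left out in turn.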

Additional observations from a re-analysis of the deposited data

How the results depend on the processing

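The number of all genes past the criterion, 266, was 20 with no filter on low values, 152 with a mean FPKM of at least 5, 176 with the replicate block and 59 to 159 with a library left out, when limma has 1 residual degree of freedom and the lone library is assumed to vary like the other group. Of the 2 imprinted growth genes past it, 0 remained with no filter, 1 (PEG10) with a mean FPKM of at least 5, where DLK1 was not tested, 1 (PEG10) with quantile normalization (DLK1 adjusted p = 0.0676), and 0 or 1 with a library left out. The 3 with an adjusted p under 0.05 became 0 with no filter (limma adjusted p of 0.0585 for PEG10, 0.0769 for H19 and 0.0929 for DLK1), 5 with the robust prior (CDKN1C 0.0323, MEST 0.0485), 5 without short RNA genes (CDKN1C 0.0189, MEST 0.0366), and 0 or 1 with a library left out. Over the alternatives that tested each gene, the adjusted p was 0.00169 to 0.169 for PEG10 (under 0.05 in 9 of 14), 0.00226 to 0.152 for DLK1 (7 of 13) and 0.00521 to 0.269 for H19 (9 of 14), and no alternative turned the sign of a member's fold change.

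The list of IGF genes had 1 past the criterion (IGFBP7) with a pseudocount of 0.1, with the robust prior and without short RNA genes, the Notch list 1 (HEY2) and the neighbors 1 (TNNT3) with the latter 2 settings, and the CDK inhibitors 0 with no filter. With a library left out the CDK inhibitors had 0 or 1 and the neighbors 0 or 1 (MIR432, without ECsXAV replicate 1), and the difference in the log2 ratio of H19 to IGF2 was -1.37 to -1.03. The other imprinted genes and the member transcripts had 0 past the criterion under every alternative run. The sign of CDKN2D turned without ECsXAV replicate 1, without CPC replicate 1 and with quantile normalization, its log2 fold change being -0.055 to 0.038 with a library left out and 0.010 with quantile normalization. The causes of these shifts were not tested. The ratio of MEG3 to DLK1 was not computed, since MEG3 was listed at 0. The smallest read numbers that give the values are a few for DLK1 in CPC and for PHLDA2 in all libraries, and the true counts may be larger.

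Both groups number their replicates 1 and 2, and the sources do not say that equal numbers shared a culture or day. The differences of replicate 1 minus replicate 2 in the groups had a rank correlation of 0.356 and a Pearson's r of 0.035 across 12398 genes. With the replicate block, members past the criterion numbered 1 (PEG10), DLK1 having a limma adjusted p of 0.0518, and IGF genes 1 (IGFBP7).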
